A study of Mus musculus with 18 samples.

Results

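The p200 family, also called HIN-200 or PYHIN genes, is a cluster of interferon-inducible genes on distal mouse chromosome 1. Its 9 members described here are Ifi202b, Ifi203, Ifi204, Ifi205, Ifi207, Ifi209, Ifi211, Ifi213 and Mndal. They were chosen by name and were all found, 9 genes of 38887 in the tables of this study. The choice followed no measured value, but earlier results of these data were known when it was made. The study grew bone marrow-derived macrophages (BMMs) from female C57BL/6J mice for 6 days with 50 ng/ml M-CSF, the growth factor that drives marrow cells to become macrophages, and sequenced their poly(A) RNA untreated and after 4 h with 100 ng/ml LPS, the bacterial cell wall component that activates Toll-like receptor 4. There were 3 genotypes and 3 preparations of each, 18 libraries in all. By the study's methods all 3 genotypes carry a Cre recombinase knocked in at Lyz2, the lysozyme gene of myeloid cells. The mice called WT carry nothing further, GILZ KO mice also have loxP sites around exon 6 of Tsc22d3, the gene of the glucocorticoid-induced leucine zipper (GILZ), and GILZ TG mice also carry a Tsc22d3/Gilz-1 cDNA in the ROSA26 locus behind a floxed stop cassette. In the methods the WT and GILZ KO lines bear B6.129P2 names. The GILZ TG line bears a BL6 name and came, like GILZ KO, from a cross with the WT line. By the methods, mice were matched for age within a set. The BMMs came from 3 mice of each genotype, each preparation being an independent one, and the labels do not say whether an untreated and an LPS library with the same number came from the same mouse.

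Proteins of this family carry a C-terminal HIN domain that binds DNA and mostly an N-terminal pyrin domain, through which such proteins assemble. AIM2, encoded in the same cluster, senses DNA in the cytosol and forms an inflammasome, and IFI204 (p204) is known to take part in DNA-triggered interferon production and in myeloid differentiation. Type I interferon raises these genes through the transcription factor complex ISGF3, which binds the interferon-stimulated response element (ISRE). In macrophages LPS leads to such induction because it first triggers the release of interferon-β. The cluster differs between inbred strains in gene number and sequence, and Ifi202b is known as a gene expressed very little in C57BL/6 mice, which matters for counts made against a single reference genome.

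On the GRCm38 assembly all 9 genes are annotated as protein-coding and lie within 465528 bases of chromosome 1, at chr1:173566283-174031810. In ascending order they are Ifi213 (chr1:173566283-173599274), Ifi209 (chr1:173630917-173647928), Ifi207 (chr1:173723427-173741747), Ifi204 (chr1:173747293-173766943), Mndal (chr1:173849126-173942491), Ifi211 (chr1:173896345-173913046), Ifi203 (chr1:173920407-173942672), Ifi202b (chr1:173962568-173982744) and Ifi205 (chr1:174011998-174031810). Ifi209 is the only one of the 9 on the plus strand. The annotated span of Mndal holds Ifi211 and most of Ifi203 on the same strand.

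Because the 9 genes moved together after LPS, their promoter windows are shown here, from 250 bases before to 50 bases after the RefSeq start site on GRCm38.p6. RefSeq windows were matched for 8 of the 9 genes, 10 windows in all, and Ifi204 was the gene without a match. The ISRE core, GAAA, any 2 bases and GAAA again, searched on both strands (TTTC, 2 bases and TTTC on the opposite strand), was found in 7 of these 10 windows and in 6 of the 8 genes, and in 3.44% of all 32851 windows of the same length. Capitals mark these matches. The 2 windows of Mndal overlap each other, as do those of Ifi203. Windows of Mndal and Ifi203 are also alike in sequence, as are those of Ifi205, Ifi207 and Ifi211. The windows counted are therefore not separate cases, and enrichment was not tested. The first windows are those of Ifi205 (chr1:174031706-174032005, minus strand), Ifi213 (chr1:173599223-173599522, minus strand) and Ifi211 (chr1:173912997-173913296, minus strand). Ifi205 and Ifi213 had the largest log2 fold changes with LPS among the 9 genes in each genotype, and Ifi211 was one of the 2 highest members after LPS. Ifi207 (chr1:173741760-173742059, minus strand) had the highest level without treatment, Ifi209 (chr1:173630609-173630908, plus strand) was the member that differed between genotypes, and Ifi202b (chr1:173982795-173983094, minus strand) was close to 0 throughout.
Ifi205: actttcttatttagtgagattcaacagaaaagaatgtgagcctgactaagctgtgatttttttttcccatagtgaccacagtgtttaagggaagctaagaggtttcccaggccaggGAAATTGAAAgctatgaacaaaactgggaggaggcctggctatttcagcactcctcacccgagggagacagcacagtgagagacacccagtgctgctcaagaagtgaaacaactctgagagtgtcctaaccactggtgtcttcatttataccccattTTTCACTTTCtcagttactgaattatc
Ifi213: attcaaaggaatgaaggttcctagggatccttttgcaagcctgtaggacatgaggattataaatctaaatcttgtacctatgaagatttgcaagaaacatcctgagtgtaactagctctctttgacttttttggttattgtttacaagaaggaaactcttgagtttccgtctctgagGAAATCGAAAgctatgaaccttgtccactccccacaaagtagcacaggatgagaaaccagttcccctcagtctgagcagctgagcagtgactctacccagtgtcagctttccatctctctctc
Ifi211: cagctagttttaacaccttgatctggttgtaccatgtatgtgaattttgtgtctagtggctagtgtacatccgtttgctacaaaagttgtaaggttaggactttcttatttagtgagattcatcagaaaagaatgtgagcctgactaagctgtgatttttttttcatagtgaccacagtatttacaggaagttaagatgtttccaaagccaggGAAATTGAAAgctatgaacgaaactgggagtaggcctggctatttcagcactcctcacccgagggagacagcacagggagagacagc
Ifi207: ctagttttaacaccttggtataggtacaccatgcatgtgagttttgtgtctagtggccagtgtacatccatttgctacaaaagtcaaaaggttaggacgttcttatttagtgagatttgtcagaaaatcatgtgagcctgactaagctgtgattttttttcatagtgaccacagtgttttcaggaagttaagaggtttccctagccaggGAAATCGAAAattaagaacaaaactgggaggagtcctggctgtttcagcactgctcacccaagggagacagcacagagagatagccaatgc
Ifi209: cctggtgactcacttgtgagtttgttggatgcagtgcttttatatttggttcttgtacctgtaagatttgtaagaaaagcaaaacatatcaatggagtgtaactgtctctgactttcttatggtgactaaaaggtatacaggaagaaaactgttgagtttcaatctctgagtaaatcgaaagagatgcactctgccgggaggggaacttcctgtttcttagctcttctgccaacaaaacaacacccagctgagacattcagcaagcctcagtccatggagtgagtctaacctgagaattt
Ifi202b: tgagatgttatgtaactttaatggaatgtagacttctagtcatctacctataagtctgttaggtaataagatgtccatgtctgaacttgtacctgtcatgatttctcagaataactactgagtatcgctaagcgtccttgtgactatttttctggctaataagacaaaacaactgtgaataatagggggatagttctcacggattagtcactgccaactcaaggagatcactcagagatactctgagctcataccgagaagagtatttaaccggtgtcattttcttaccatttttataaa

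The match nearest the start site began at position -41 in Ifi207, at -37 in Ifi211 and at -73 in Ifi213, counted with the start site as 0. In Ifi205 one match began at -134 and a match on the opposite strand at 23. Mndal had a match at -36 and Ifi203 at -35 in one of their 2 windows each, and the other window of Mndal had one on the opposite strand at -54. The 10 letters were the same, GAAATCGAAA, in Ifi203, Ifi207, Ifi213 and Mndal. This exact word, which was chosen after the windows were read, occurs in 16 of the 32851 windows (0.0487%). Ifi205 and Ifi211 shared the word GAAATTGAAA, which occurs in 38 windows (0.116%). The windows of Ifi209 and Ifi202b held no such core.

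The γ-activated site TTC, any 3 bases and GAA, a word that reads the same on both strands, was found in the window of Ifi202b alone among the 8 genes, against 8.30% of all windows. A loose NF-κB word, GGG, any 5 bases and CC (GG, 5 bases and CCC on the opposite strand), was found in Ifi203, Ifi209 and Mndal, and in 50.8% of all windows. The 2 exact ISRE words are cases of the ISRE core. No match of the γ-activated site or the NF-κB word in these windows overlapped an ISRE match. A match describes letters in a window and is not a measured binding site.

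The libraries held 14583055 to 38557029 reads on genes (median 24450362), and GILZ KO after LPS was the shallowest group, with a median of 15491518. Tsc22d3, which checks the labels, was at 16.5 ± 2.08 TPM in untreated WT (TPM is a level per transcript length, scaled to the same total in every library), 2.34 ± 0.461 TPM in GILZ KO, and in the GILZ TG libraries 155.9 ± 3.93 TPM (SD, n = 3 each). After LPS the check was weaker for GILZ KO, where Tsc22d3 differed from WT by a log2 fold change of -0.69 and did not pass (adjusted p = 0.15 from edgeR). With LPS it fell in WT (-1.10) and rose in GILZ KO (0.92). GILZ TG stayed above WT after LPS by 4.07 (adjusted p = 1.04e-08 from edgeR). In contrast, Lyz2 separated WT from both other genotypes, with 11048, 12070 and 15401 TPM in untreated WT libraries and 17.2 to 53.1 TPM in all 6 untreated GILZ KO and GILZ TG libraries, although the methods place Cre at this locus in all 3 genotypes. Of the genes at which mouse strains differ, Nnt, a mitochondrial transhydrogenase gene with a known deletion in C57BL/6J, was also lower in WT (15.7 to 18.5 TPM untreated) than in GILZ KO (33.8 to 36.5 TPM) and GILZ TG (28.2 to 30.1 TPM), with log2 fold changes of 0.95 and 0.70 against WT (adjusted p = 6.72e-05 and 0.000591 from edgeR). Differences from WT therefore cannot be told apart from a difference in strain background or Lyz2 allele, whereas between GILZ KO and GILZ TG the log2 fold change of Lyz2 was -0.02 (SE of the estimate 0.36, adjusted p = 0.986 from edgeR). These genotypes nevertheless differed in 2 of 7 strain-linked genes tested without treatment, where 4.94% of all genes passed. They were Nnt (0.25, adjusted p = 0.0411 from edgeR) and Ly9 on chromosome 1 (0.33, adjusted p = 0.0236 from edgeR), both higher in GILZ KO. Without GILZ TG preparations 1 and 2 the log2 fold changes were 0.26 for Nnt and 0.25 for Ly9. A difference in background therefore cannot be told apart there either. The 8 macrophage markers were high in every group (3947 to 5083 TPM summed) and none of them was at 0 throughout a group. Markers of other cells were raised in GILZ TG preparations 1 and 2. Untreated, the 6 stromal fibroblast markers summed to 98.3, 112.7 and 9.60 TPM in GILZ TG 1 to 3 against 4.58 to 21.3 TPM in the other genotypes, and the 7 neutrophil lineage markers to 153.2, 401.2 and 57.3 TPM against 19.8 to 49.7 TPM. The 7 B cell markers summed to 91.5, 152.9 and 35.9 TPM against 30.9 to 35.4 TPM. The defining B cell genes Ms4a1 and Pax5 did not exceed 0.16 TPM in any library, and T cell, dendritic cell and erythroid markers summed to at most 3.69, 2.25 and 1.32 TPM. The part of these other cells in the results was not tested, and values without GILZ TG libraries 1 and 2 are given beside the genotype calls that rest on GILZ TG.

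In untreated BMMs the 9 genes together made up 0.0175% to 0.0219% of all transcripts by group mean. Their summed level was 189.6 ± 19.1 TPM in WT and 219.5 ± 15.6 TPM in GILZ KO, while GILZ TG libraries had 175.2 ± 14.8 TPM (SD, n = 3 each). The largest part came from 1 gene. Ifi207 was at 101.9, 86.3 and 68.5 TPM in the WT libraries, 102.0, 99.3 and 99.1 TPM in GILZ KO, and in the GILZ TG libraries 79.8, 71.8 and 74.9 TPM, and carried 44.8%, 45.7% and 43.3% of the summed level in the same order. It lay above every other member in all 9 untreated libraries.

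After Ifi207 came Mndal, a gene named for its likeness to the human myeloid nuclear differentiation antigen. It was at 28.1, 31.5 and 31.6 TPM in WT and 39.8, 32.7 and 34.0 TPM in GILZ KO, while GILZ TG libraries had 23.4, 26.1 and 38.0 TPM. Ifi203 was at 22.07, 23.86 and 21.99 TPM in WT and 30.0, 25.9 and 25.5 TPM in GILZ KO, while GILZ TG libraries had 18.3, 17.2 and 24.7 TPM. In GILZ TG both genes were highest in preparation 3. Ifi204 lay between 19.9 and 28.2 TPM over all 9 untreated libraries and Ifi211 between 18.5 and 22.9 TPM. The levels of Ifi203 and Ifi204 overlapped in each genotype, so that these genes had no firm order. Ifi204 lay above Ifi211 in all 9 libraries, without overlap in GILZ TG. Ifi203 lay above Ifi211 without overlap in WT and GILZ KO, whereas in GILZ TG they overlapped.

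A clear step down followed. Ifi209 was at 5.56, 5.69 and 5.94 TPM in WT and 9.34, 7.24 and 7.10 TPM in GILZ KO, while GILZ TG libraries had 3.41, 3.40 and 3.83 TPM. The 3 genotypes did not overlap. Ifi205 lay between 1.98 and 4.58 TPM in the 9 libraries, below Ifi209 in each of them, and Ifi213 between 0.10 and 0.57 TPM, from at most 10 counts per library. Ifi202b, which encodes a p200 protein without a pyrin domain that is known to hold back AIM2, was listed at 0 in 5 of the 9 untreated libraries and at most at 0.07 TPM, or 2 counts, in the rest.

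**Figure D1:**
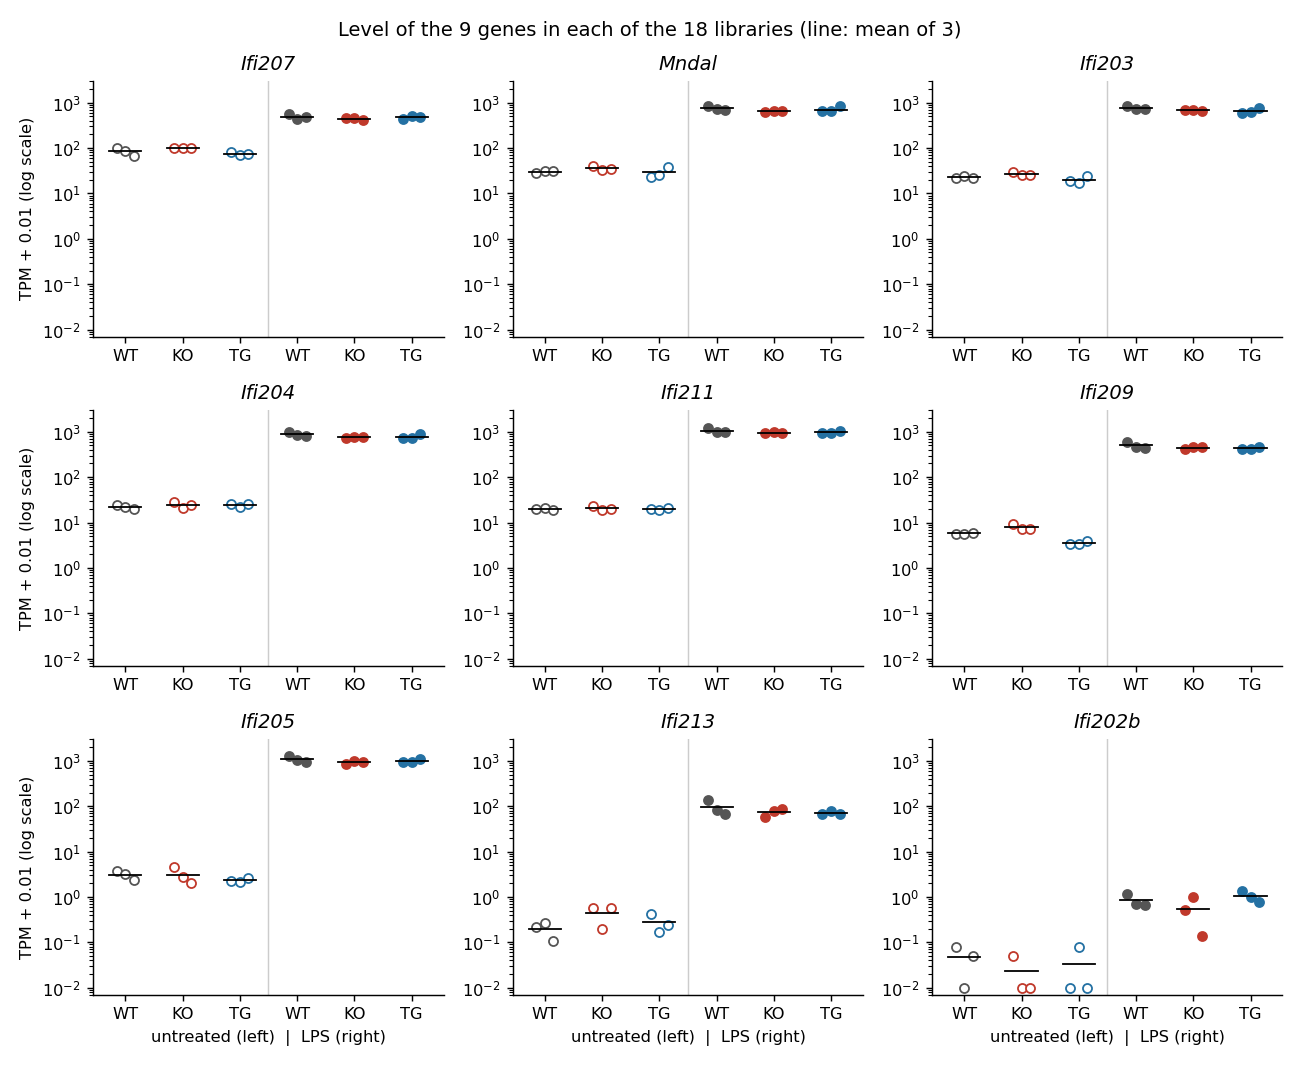
Level of each of the 9 genes in the 18 libraries, as TPM + 0.01 on a log axis, with WT, GILZ KO (KO) and GILZ TG (TG) untreated on the left (open points) and after LPS on the right (filled points); lines are means of 3 libraries. Every gene sits higher after LPS in every library, from Ifi207 (68.5 to 102.0 TPM untreated, 416.1 to 556.1 TPM after LPS) down to Ifi202b (at most 0.07 TPM untreated and 0.13 to 1.38 TPM after LPS).

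Whether LPS raised these genes was tested within each genotype, with edgeR's quasi-likelihood test on rounded expected counts over all 18 libraries and Benjamini-Hochberg adjustment over 13169 genes. All 9 genes passed in WT, GILZ KO and GILZ TG, each of them upward. Of all genes tested, 33.5% passed upward in WT, 33.2% in GILZ KO and 33.6% in GILZ TG. The summed level reached 5616 ± 672 TPM in WT and 4935 ± 195 TPM in GILZ KO, while GILZ TG libraries had 5103 ± 490 TPM (SD, n = 3 each), which was 0.494% to 0.562% of all transcripts by group mean. The median log2 fold change of the 9 genes was 5.92 in WT, 5.57 in GILZ KO and 5.65 in GILZ TG, whereas that of all genes lay at -0.02 in each.

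Ifi205 had the largest estimated rise in WT. From 3.68, 3.18 and 2.33 TPM it went to 1256, 1061 and 932.5 TPM, which made it one of the 2 highest members after LPS. Over all untreated libraries it had 34.9 to 101.8 counts, and the spread from assigning shared reads was 9.09% to 15.9% of the count. Its log2 fold change was 9.09 in WT, 8.82 in GILZ KO and 9.36 in GILZ TG (SE 0.23, 0.23 and 0.24). Here and throughout, SE is an approximate standard error, as the edgeR test reports none. It is the absolute log2 fold change divided by the square root of the F statistic of the test, and is rough for genes with few counts. Ifi213 rose by a similar estimate from a far lower level. It reached 134.8, 82.7 and 67.2 TPM in WT and 59.2, 76.7 and 85.6 TPM in GILZ KO, while GILZ TG libraries had 68.1, 77.6 and 67.7 TPM. Its log2 fold change was 9.06 in WT, 8.003 in GILZ KO and 9.36 in GILZ TG, with SEs of 0.31 to 0.35. The untreated value rests on 2.44 to 10 counts, and the effective length used for its TPM ranged from 906 to 2710 bases between libraries, with 5 transcripts quantified.

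Ifi211, the other of the 2 highest genes, reached 1212, 983.6 and 976.6 TPM in WT and 935.8, 979.4 and 957.0 TPM in GILZ KO, while GILZ TG libraries had 936.4, 938.6 and 1062 TPM, with log2 fold changes of 6.38, 6.17 and 6.25. Its levels overlapped those of Ifi205 in each genotype. Ifi204 followed with 975.3, 847.5 and 794.8 TPM in WT and 718.2, 786.5 and 753.0 TPM in GILZ KO, while GILZ TG libraries had 741.3, 728.1 and 873.7 TPM. Ifi203 (log2 fold change 5.56 in WT) lay between 585.6 and 829.8 TPM and Mndal (5.25 in WT) between 638.3 and 835.2 TPM over the 9 LPS libraries. Again both were highest in preparation 3 within GILZ TG.

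Ifi209 reached 593.4, 472.8 and 449.0 TPM in WT and 416.8, 469.7 and 459.3 TPM in GILZ KO, while GILZ TG libraries had 416.3, 427.0 and 471.6 TPM, and now overlapped between the genotypes. Ifi207, the highest member without treatment, rose least among the 9. It went to 556.1, 433.6 and 474.8 TPM in WT and 461.7, 463.2 and 416.1 TPM in GILZ KO, while GILZ TG libraries had 447.8, 497.5 and 486.6 TPM. Its log2 fold change was 3.15 in WT, 2.80 in GILZ KO and 3.29 in GILZ TG (SE 0.11 each), and its levels overlapped those of Ifi209 after LPS in each genotype.

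Ifi202b passed the test from a handful of reads. Summed over 3 libraries it had 3 counts untreated and 60 after LPS in WT, 1 and 27 in GILZ KO, and 2 and 98 in GILZ TG. Scaled by library totals the ratio was 22.3 in WT, with an exact 95% interval of 7.28 to 111.2. It was 34.9 in GILZ KO (interval 5.76 to 1430) and 38.8 in GILZ TG (interval 10.4 to 324.6). These intervals cover counting error only. With 0.13 to 1.38 TPM after LPS it stayed below every other member in all 9 libraries.

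**Figure D2:**
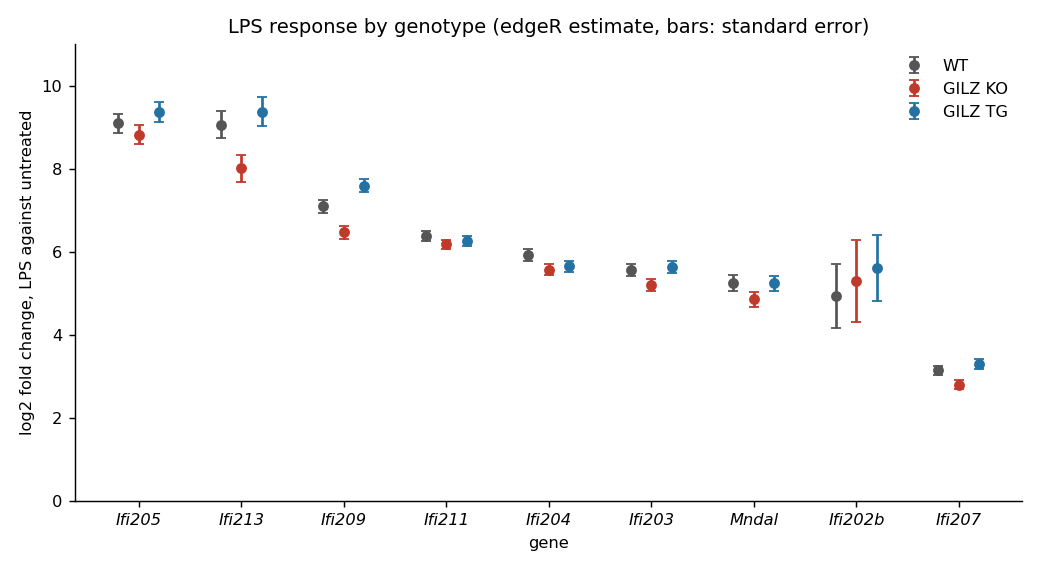
Log2 fold change of LPS against untreated BMMs for the 9 genes, ordered by the value in WT. Points are edgeR estimates with approximate standard errors for WT, GILZ KO and GILZ TG. Estimates run from 9.09 (Ifi205) to 3.15 (Ifi207) in WT, and Ifi209 lies at 6.46 in GILZ KO, below WT, and at 7.58 in GILZ TG, above it.

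The make-up of the family differed after LPS. Ifi207 went from 44.8% to 8.70% of the summed level in WT, while Ifi205 went from 1.60% to 19.2% and Ifi209 from 3.05% to 8.97%. Ifi203 and Mndal differed less, at 12.0% and 16.2% untreated and 13.7% and 13.3% after LPS. In GILZ KO the share of Ifi207 was 45.7% and 9.07%, and in GILZ TG 43.3% and 9.40%. These shares are descriptions of group means, with no test. Shares between members depend on how shared reads were assigned. Of all 75-base windows in the annotated transcripts, as long as a read, 63.6% of Ifi211 and 45.2% of Ifi205 also occur in another gene, and both genes have 695 windows in common. The value was 24.3% for Ifi209, all shared with Ifi214, 20.7% for Ifi204, 14.7% for Mndal, 8.07% for Ifi213, 5.71% for Ifi203, 2.80% for Ifi207 and 0% for Ifi202b. Summed over Ifi204, Ifi205, Ifi211 and Mndal, which share windows with each other, the level was 75.4 ± 2.82 TPM untreated and 3759 ± 451 TPM after LPS in WT (SD, n = 3 each). The share of these 4 genes in the family was 40.0% and 66.9%. It can still depend on read assignment, since Ifi203 has 131 windows in common with Mndal, and Ifi207 has 34 each with Ifi204 and Ifi211.

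**Figure D3:**
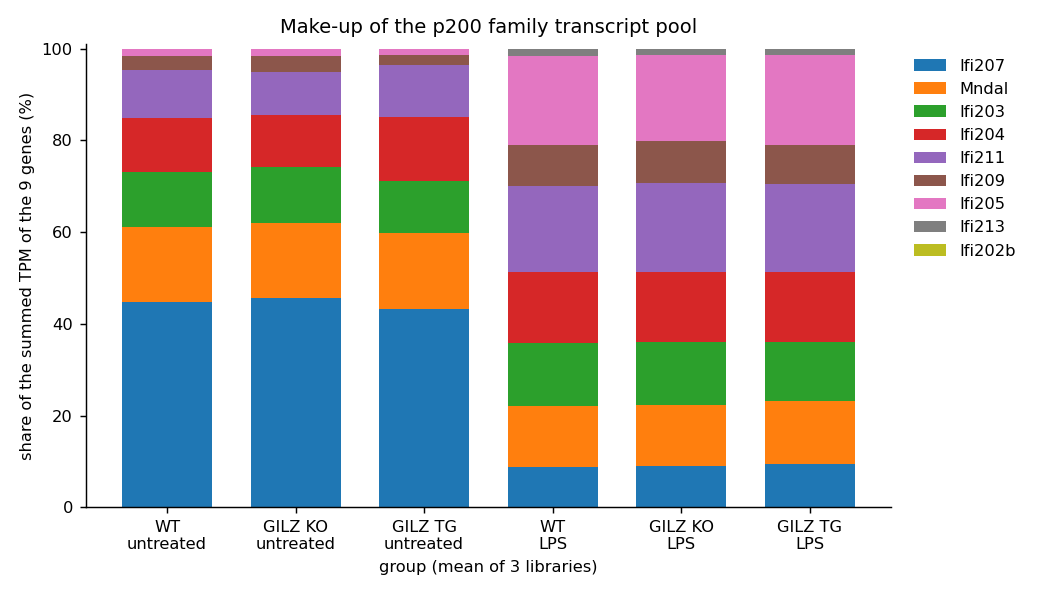
Share of each gene in the summed TPM of the 9 genes, as the mean of 3 libraries in each group, in percent. Ifi207 takes 43.3% to 45.7% without treatment and 8.70% to 9.40% after LPS, where Ifi205 and Ifi211 take 18.7% to 19.5% and 18.8% to 19.4%.

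How the genotypes differed without treatment was tested in the 9 untreated libraries over 12621 genes. Of the 9 members, 7 had enough counts, and Ifi202b and Ifi213 were left out by the filter. Between GILZ KO and GILZ TG, 1 of the 7, Ifi209, passed, higher in GILZ KO, where 4.94% of all genes passed in either direction. Its log2 fold change was 1.12 (SE 0.12, adjusted p = 0.0025 from edgeR), and all 3 GILZ KO libraries lay above all 3 of GILZ TG. It was 0.98 without GILZ KO replicate 1, the highest of the 9 libraries. With GILZ TG preparations 1 and 2 both left out it was 1.00 (adjusted p = 0.0731 from edgeR, the single GILZ TG library being assumed to vary like the others), so that the call was lost. Ifi214, the gene with which Ifi209 shares 24.3% of its 75-base windows, was listed at 0 in 8 of the 9 untreated libraries and at 0.04 TPM in the other, and the spread from assigning shared reads was at most 0.888% of the count of Ifi209.

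In Ifi203 and Ifi207 the GILZ KO libraries also lay above those of GILZ TG without overlap, which made 3 of the 7 genes tested. Such an order was found in 18.6% of all genes tested. Ifi207 had a log2 fold change of 0.38 (SE 0.10, adjusted p = 0.0551 from edgeR) and Ifi203 of 0.42 (SE 0.12, adjusted p = 0.0689 from edgeR). Neither passed, but both passed with DESeq2 (adjusted p = 0.00728 for Ifi207 and 0.0194 for Ifi203) and without a filter on low counts (0.0279 and 0.0360 from edgeR). Without GILZ TG preparations 1 and 2 the log2 fold change was 0.37 for Ifi207 and 0.16 for Ifi203. Mndal had 0.25 and Ifi205 0.38, with SEs of 0.17 and 0.29. The smallest differences were 0.02 for Ifi211 (SE 0.08) and -0.0044 for Ifi204 (SE 0.10). The median over the 7 genes was 0.38, against -0.0040 over all genes.

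Against WT, GILZ TG had 1 of 7 members passing, again Ifi209, which was lower by a log2 fold change of -0.70 (SE 0.12, adjusted p = 0.0374 from edgeR). Of all genes, 0.642% passed. The groups did not overlap, yet the call rested on the libraries used. It was lost in 5 of the 6 fits with 1 library left out, with adjusted p-values of 0.0689 without WT replicate 3 and 0.0810 without WT replicate 1, 0.167 without WT replicate 2, 0.133 without GILZ TG replicate 1 and 0.178 without GILZ TG replicate 2, and the log2 fold change lay between -0.76 and -0.64 in the 6 fits. Without GILZ TG preparations 1 and 2 it was -0.57 (adjusted p = 0.44 from edgeR). In GILZ KO against WT none of the 7 passed, with 1 (Ifi209) at an unadjusted p under 0.05, and DESeq2 likewise called none. Of all genes 0.0951% passed. Ifi209 was higher in GILZ KO by 0.42 (SE 0.12, unadjusted p = 0.00493, adjusted p = 0.329 from edgeR). These 3 comparisons share libraries. Beside the 9 genes, WT differs from both genotypes in Lyz2 and Nnt, as given above.

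**Figure D4:**
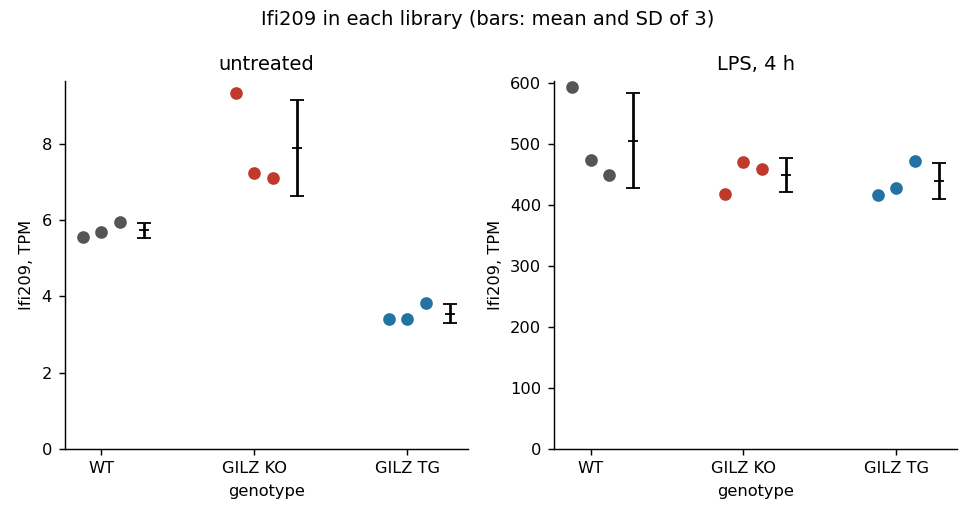
Ifi209 in TPM by genotype, untreated (left) and after LPS (right), on separate axes that start at 0; points are libraries and bars give the mean and SD of 3. Untreated libraries separate into GILZ TG (3.40 to 3.83), WT (5.56 to 5.94) and GILZ KO (7.10 to 9.34), and after LPS the genotypes overlap (416.3 to 593.4).

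After LPS all 9 genes had enough counts, and none passed in any of the 3 genotype comparisons over 12164 genes, neither with edgeR nor with DESeq2. At an unadjusted p under 0.05 the number from edgeR was also 0 in each, and from DESeq2 it was 2 for GILZ KO and 1 for GILZ TG against WT, with 0 in the third comparison. Against WT, 0.0822% of all genes passed for GILZ KO and 0.46% for GILZ TG, while GILZ KO against GILZ TG gave 2.6%. All 9 genes were estimated lower in GILZ KO than in WT, with a median of -0.19 on the log2 scale and estimates from -0.13 (Ifi207) to -0.65 (Ifi202b), where 50.2% of all genes were lower. In GILZ TG 8 of 9 were estimated lower than in WT, with a median of -0.12, where 48.2% of all genes were lower. This order in GILZ TG turned with the libraries, since 3 of 9 genes were lower than in WT with GILZ TG preparations 1 and 2 left out. Between GILZ KO and GILZ TG Ifi209 differed by 0.03 (SE 0.12) and Ifi207 by -0.10 (SE 0.09). Ifi202b was at 0.51, 1.00 and 0.13 TPM in GILZ KO and 1.38, 0.97 and 0.76 TPM in GILZ TG, which overlap (log2 fold change -0.98, SE 0.51, adjusted p = 0.326 from edgeR).

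**Figure D5:**
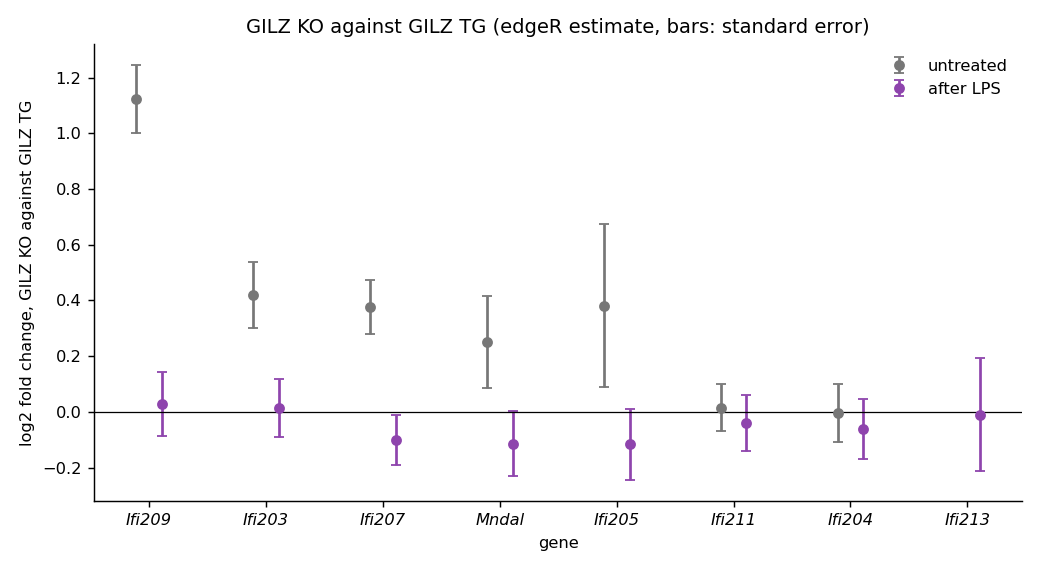
Log2 fold change of GILZ KO against GILZ TG for 8 of the genes, untreated (grey) and after LPS (purple). Points are edgeR estimates with approximate standard errors. Ifi213 was tested only after LPS and Ifi202b is not drawn. Untreated Ifi209 stands at 1.12, above all others (at most 0.42), and after LPS the 8 estimates lie between -0.12 and 0.03.

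Whether the LPS response itself differed between genotypes was tested as an interaction over all 18 libraries. In GILZ KO against GILZ TG, a comparison added after the data were seen, 1 of the 9 genes passed, where 0.121% of all genes passed. This was Ifi209, whose log2 response was 6.46 in GILZ KO, 7.09 in WT and 7.58 in GILZ TG, so that the response of GILZ KO was smaller than that of GILZ TG by a difference of -1.12 (SE 0.18, adjusted p = 0.0237 from edgeR). Untreated the genotypes differed by 1.12 and after LPS by 0.03. The call was lost in 6 of 12 fits with 1 library left out, namely without replicate 1 of untreated GILZ KO (adjusted p = 0.058), replicates 1 and 2 of untreated GILZ TG (0.085 and 0.0801), replicates 1 and 3 of GILZ KO after LPS (0.0719 and 0.0831) and replicate 2 of GILZ TG after LPS (0.0524), all from edgeR. With GILZ TG preparations 1 and 2 left out it was -1.15 (adjusted p = 0.419 from edgeR). Ifi207 had a difference of -0.50 (adjusted p = 0.193 from edgeR). This difference passed with the preparation as a block (adjusted p = 0.0386 from edgeR), which pairs same-numbered libraries although the labels state no pairing. Without GILZ TG preparations 1 and 2 it was -0.57 (adjusted p = 0.545 from edgeR). Against WT none of the 9 responses passed in GILZ KO (0.0152% of all genes passed), with 3 at an unadjusted p under 0.05, nor in GILZ TG (0.00759%), with 1, and DESeq2 called 0 in each. The largest difference among those 3 was that of Ifi209 in GILZ KO, at -0.63 (adjusted p = 0.607 from edgeR).

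The profile of Ifi209 over the libraries was compared with those of 9415 other genes with a mean of at least 5 TPM, by Pearson's r of log2(TPM + 1) over 18 libraries after centring within each treatment. The most alike were Resf1 (r = 0.938), Trim30c (0.936) and Phf11b (0.915). Resf1 was at 41.9, 48.6 and 31.2 TPM in untreated WT, GILZ KO and GILZ TG (means of 3), Trim30c at 0.897, 1.68 and 0.56 TPM and Phf11b at 11.1, 14.2 and 9.01 TPM. Each had the order GILZ KO, WT, GILZ TG, as Ifi209 did, but was picked for its likeness to Ifi209, so that this order is no separate result. Trim30c reached a mean of 5 TPM only through its LPS libraries, at 338.8, 348.2 and 312.6 TPM in WT, GILZ KO and GILZ TG (means of 3). Among the other members Ifi203 was the most alike (0.818), then Ifi207 (0.681) and Mndal (0.659), and Ifi204 the least (0.303). The points share libraries and scaling, and the values describe likeness only.

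Outside the 9 genes, 4 further genes of the PYHIN cluster were found, namely Aim2, Ifi206, Ifi208 and Ifi214, and all 4 rose with LPS in each genotype. In WT Aim2 went from 40.7 ± 2.89 to 281.0 ± 15.5 TPM (log2 fold change 3.27), and Ifi206 from 0.973 ± 0.336 to 217.1 ± 62.6 TPM (8.39). Ifi208 went from 0.25 ± 0.101 to 72.6 ± 13.6 TPM (9.01), and Ifi214 was listed at 0 in the 3 untreated WT libraries and at 6.05 to 10.1 TPM after LPS. None of the 4 passed between genotypes. Untreated Ifi206 differed by 1.22 between GILZ KO and GILZ TG (adjusted p = 0.0658 from edgeR), from 1.17 ± 0.133 and 0.533 ± 0.161 TPM (SD, n = 3 each).

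Of 15 genes of the interferon pathway, 13 rose and 2 fell with LPS in each genotype. In WT the largest changes were those of Ifnb1, which encodes interferon-β (log2 fold change 10.25), and of the transcription factor genes Irf7 (6.21), Stat2 (4.56) and Irf1 (4.404). All 20 classical interferon-stimulated genes rose in each genotype, with a median of 7.99 in WT, 7.16 in GILZ KO and 7.88 in GILZ TG, led in WT by the antiviral genes Rsad2 (10.13), Cmpk2 (9.86) and Mx1 (9.46) and the chemokine gene Cxcl10 (9.61). Of 22 DNA sensing genes found, 13 rose and 4 fell in WT, 12 and 4 in GILZ KO, and 13 and 5 in GILZ TG. Of all genes 33.2% to 33.6% rose and 35.1% to 35.4% fell over the 3 genotypes. Among these Zbp1, a sensor of nucleic acids, changed by 6.47 in WT, the cytokine gene Il18 by 5.30, the exonuclease gene Trex1 by 4.11 and the nucleotide hydrolase gene Samhd1 by 3.61.

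Between untreated GILZ KO and GILZ TG, 3 of the 20 interferon-stimulated genes passed, all higher in GILZ KO, where 4.94% of all genes passed and 2.77% passed higher in GILZ KO. The median of the 20 was 0.49 where that of all genes was -0.0040. Ifit1, which binds viral RNA, was at 16.9, 9.95 and 9.42 TPM in GILZ KO, 6.47, 5.78 and 6.20 TPM in WT and 4.31, 5.04 and 6.50 TPM in GILZ TG. GILZ KO replicate 1 was the highest library for Ifit1, as for Ifi209. The log2 fold change of Ifit1 between GILZ KO and GILZ TG was 1.16 (adjusted p = 0.023 from edgeR), and those of Ifit2 and Ifit3 were 1.21 and 0.88 (adjusted p = 0.027 and 0.0402). No interferon pathway gene passed without treatment, and of the DNA sensing genes Casp1, the inflammasome protease, did (0.32, adjusted p = 0.0447 from edgeR). Without GILZ TG preparations 1 and 2 none of these 4 genes passed, with log2 fold changes of 0.86 for Ifit1, 0.93 for Ifit2, 0.87 for Ifit3 and 0.16 for Casp1 (adjusted p = 0.211, 0.224, 0.216 and 0.369 from edgeR). None of the 20 passed between GILZ KO and WT, where 10 had an unadjusted p under 0.05 and the median was 0.42, or between GILZ TG and WT, where 0 did and the median was -0.05.

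After LPS other genes of these lists passed between GILZ KO and GILZ TG than without treatment, and each of them was lower in GILZ KO. The antiviral GTPase genes Mx1 and Mx2 were lower in GILZ KO (-0.47 and -0.39, adjusted p = 0.0168 and 0.0285 from edgeR), as were the transcription factor genes Irf1 (-0.45, adjusted p = 0.0323) and Irf8 (-0.57, adjusted p = 0.0285) and the DNA receptor gene Tlr9 (-0.88, adjusted p = 0.0195), where 2.6% of all genes passed. Without GILZ TG preparations 1 and 2 these 5 estimates lay between -0.33 (Irf1) and -0.80 (Tlr9) and none passed (adjusted p from 0.16 to 0.362, edgeR). The LPS response was smaller in GILZ KO than in GILZ TG for Ifit1 (-1.47, adjusted p = 0.0237 from edgeR) and Mx2 (-1.69, adjusted p = 0.0258), beside Ifi209, where 0.121% of all genes passed. Without those preparations the differences were -1.22 and -1.43 (adjusted p = 0.514 for both from edgeR).

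Around the cluster, 36 other protein-coding genes lie within 1 Mb of either end, among them the 4 PYHIN genes above and many olfactory receptor genes, and 5 of them had enough counts in untreated BMMs. Of these Slamf8, a macrophage surface receptor gene, and the phosphatase gene Dusp23 were at a lower level in the GILZ KO libraries than in GILZ TG (-0.80 and -0.51, adjusted p = 0.0181 and 0.0466 from edgeR), and Slamf8 also after LPS (-0.49, adjusted p = 0.0498). None of these calls held without GILZ TG preparations 1 and 2, with -0.68 and -0.62 untreated (adjusted p = 0.146 and 0.156 from edgeR) and -0.51 after LPS (0.318). None passed against WT in either treatment. In addition to Nnt, the genes at which strains differ included Casp4, which is defective in 129 mice, and the Slamf genes Cd84, Cd48, Slamf7, Ly9 and Cd244a on chromosome 1, with Slamf1 after LPS. Apart from Nnt none of them passed against WT in either treatment. Ly9 was higher in untreated GILZ KO than in GILZ TG (0.33, adjusted p = 0.0236 from edgeR), with 127.3 ± 6.85 and 99.8 ± 6.93 TPM, and so was Nnt. With those preparations left out the values were 0.25 for Ly9 and 0.26 for Nnt (adjusted p = 0.189 and 0.194 from edgeR), neither passing, while Nnt remained called between GILZ TG and WT (0.69, adjusted p = 0.0218 from edgeR). Expression values do not show which strain's sequence a locus carries.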

How the data were processed

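Poly(A) RNA of 18 BMM libraries was sequenced by the authors in directional single reads. Per the methods they checked the reads with FastQC 0.11.2, ran the grape-nf workflow and mapped to GRCm38. The deposited expected counts per gene are estimates in which reads that fit several genes are divided between them, and are not normalized. The deposited TPM values are scaled by the authors to effective transcript length and to the same total in every library. The deposited tables also give transcript lengths and the posterior standard deviation of each count. Tables of the authors' own comparisons, made with DESeq2 1.40.2, hold fold changes and p-values, which were not used. Their gene names were, and members were matched by gene identifier. The release of the annotation is not given in the sources used here.

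Expected counts were rounded to whole numbers. Genotypes were compared in the 9 libraries of each treatment, and LPS responses and their differences in all 18 libraries as 6 groups, with edgeR 4.0.16 in R 4.3.3 (TMM scaling, filterByExpr with a minimum count of 10, quasi-likelihood test, two-sided) and Benjamini-Hochberg adjustment over all genes tested, at a threshold of 0.05. With 3 against 3 libraries an exact permutation test of a single gene cannot go below 0.1. Totals ran from 14583055 to 38557029 reads, and 14 rows without a gene name over all libraries were left out. Alternatives were DESeq2 1.42.0, its size factors in edgeR, no filter on low counts, only the libraries compared, a block, and each library left out. A further one was limma 3.58.1 on log2(TPM + 1) or log2(TPM + 0.1) with genes of at least 1 TPM in 3 libraries or without that filter. The block was the replicate number between genotypes, and the preparation for LPS responses and their differences. The preparation block takes same-numbered untreated and LPS libraries of a genotype as 1 preparation. The difference in response between GILZ KO and GILZ TG, the fits without GILZ TG libraries 1 and 2, and the TPM summed over genes that share reads were added after seeing the data. In simulated counts for the untreated GILZ KO and GILZ TG comparison (12621 genes) the test recovered 74% of genes changed 2-fold and 92% of those changed 4-fold. In simulated counts for LPS in WT (13169 genes) it recovered 77% and 94%. In both simulations only a small set of genes was changed, as many up as down. In the data 33.5% of genes rose and 35.1% fell with LPS in WT, so the simulation does not show the recovery under that many changes. Same-numbered untreated and LPS libraries deviated together in GILZ TG, with correlations of 0.266, 0.397 and 0.605 across genes, but not in all pairs of WT or GILZ KO, nor between genotypes (3 of 18 pairs over 0.1), and the labels state no pairing.

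The 9 members, the other gene lists and the cell type markers were chosen with earlier results of these data known. All members were named in every comparison. From the other lists, genes passing between genotypes were named, with up to 4 per list of the largest LPS responses called in all 3 genotypes. Neighbours were named when called between genotypes, the strain-linked genes when they had enough counts, and the 3 genes most like each member called between genotypes by Pearson's r. Of 10 further PYHIN genes listed 4 were matched, of 24 DNA sensing genes 22 and of 10 strain-linked genes 9. Gene positions are those of GENCODE on GRCm38. Promoter windows come from RefSeq on GRCm38.p6.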

Additional observations from a re-analysis of the deposited data

Results flagged for a closer look

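One result was marked for a closer look because the response to LPS itself differed between genotypes. The log2 response of Ifi209 was smaller in GILZ KO than in GILZ TG, by a difference of -1.12 (approximate standard error 0.18). The adjusted p was 0.0237 from edgeR, with 13169 genes tested. The responses were 6.46 and 7.58. The 3 untreated GILZ KO libraries lay at 7.10 to 9.34 TPM and those of GILZ TG at 3.40 to 3.83 TPM, and after LPS the 2 genotypes overlapped at 416.8 to 469.7 and 416.3 to 471.6 TPM. The comparison was added after the data were seen. With 1 library left out at a time the adjusted p lay between 0.0134 and 0.085 (edgeR, 12 fits), so that the call was lost in some of these fits. Without GILZ TG libraries 1 and 2 the difference was -1.15, an estimate that rests on 1 GILZ TG library in each treatment.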

How the results depend on the processing

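All 9 genes passed upward after LPS in WT, GILZ KO and GILZ TG under every alternative run, except that with only the libraries compared Ifi202b fell out by the filter on low counts in GILZ KO, where the other 8 passed. Of 1646 alternative values for 102 estimates, 1529 kept their direction and their side of the threshold, 19 lost a call, 9 gained one and 89 changed sign, 56 of these with 1 library left out. The number of genes called in untreated GILZ TG against WT went from 1 to 0 with the 3 limma fits, with only the libraries compared, with the replicate block and without GILZ TG libraries 1 and 2, and lay between 0 and 1 with 1 library left out. In untreated GILZ KO against GILZ TG it went from 1 to 3 with DESeq2, 3 without the filter on low counts, 2 with only the libraries compared, 2 with the replicate block and 0 without GILZ TG libraries 1 and 2, and lay between 1 and 3 with 1 library left out, the 3 being found without GILZ TG replicate 3. For the response of GILZ KO against that of GILZ TG it was 2 with the preparation block, 0 without GILZ TG libraries 1 and 2, and between 0 and 1 with 1 library left out. Apart from these counts neither block changed a call, and the single change of sign was Mndal in the response of GILZ TG against that of WT, at 0.0031 with the preparation block. With the 3 limma fits, on log2(TPM + 1), log2(TPM + 0.1) and without the TPM filter, the values that changed sign were 0.018 for Ifi204 in untreated GILZ KO against GILZ TG, 0.040 for Ifi213 in GILZ KO against GILZ TG after LPS, -0.25 and -0.51 for Ifi202b in the response of GILZ KO against that of WT, -0.060 and -0.052 for Ifi203, -0.44 and -0.68 for Ifi213 and 0.0019 and 0.0052 for Mndal in the response of GILZ TG against that of WT (equal values given once). Without GILZ TG libraries 1 and 2, values that changed sign became 0.032 for Ifi203 and 0.33 for Mndal in untreated GILZ TG against WT, -0.083 for Ifi211 and -0.14 for Mndal in untreated GILZ KO against GILZ TG, -0.11 for Ifi202b, 0.065 for Ifi203, 0.033 for Ifi204, 0.065 for Ifi205, 0.028 for Ifi207, 0.038 for Ifi211 and 0.19 for Mndal in GILZ TG against WT after LPS, -0.22 for Ifi203, -0.11 for Ifi209 and 0.011 for Ifi213 in GILZ KO against GILZ TG after LPS. With 1 library left out at a time, estimates that crossed 0 ranged from -0.00035 to 0.20 for Ifi204, from -0.41 to 0.23 for Ifi205 and from -0.057 to 0.077 for Ifi211 in untreated GILZ KO against WT. They ranged from -0.038 to 0.048 for Ifi211 and from -0.31 to 0.070 for Mndal in untreated GILZ TG against WT. They ranged from -0.11 to 0.082 for Ifi204, from -0.016 to 0.61 for Ifi205 and from -0.067 to 0.065 for Ifi211 in untreated GILZ KO against GILZ TG. They ranged from -0.10 to 0.073 for Ifi207 and from -0.23 to 0.016 for Mndal in GILZ TG against WT after LPS. They ranged from -0.050 to 0.14 for Ifi203, from -0.13 to 0.045 for Ifi204, from -0.016 to 0.10 for Ifi209, from -0.095 to 0.040 for Ifi211, from -0.11 to 0.13 for Ifi213 and from -0.20 to 0.042 for Mndal in GILZ KO against GILZ TG after LPS. They ranged from -0.39 to 2.12 for Ifi202b and from -0.49 to 0.16 for Ifi205 in the response of GILZ KO against that of WT. They ranged from -0.073 to 3.08 for Ifi202b, from -0.081 to 0.23 for Ifi203, from -0.052 to 0.81 for Ifi213 and from -0.18 to 0.26 for Mndal in the response of GILZ TG against that of WT. They ranged from -2.71 to 1.43 for Ifi202b, from -0.17 to 0.038 for Ifi204 and from -0.14 to 0.013 for Ifi211 in the response of GILZ KO against that of GILZ TG. The cause of these changes was not tested. Ifi202b and Ifi213 rest on at most 10 counts per untreated library, which limits what their untreated values and responses can show.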
